A study of Mus musculus with 12 samples.

Results

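The 8 genes Il18r1, Il18rap, Il12rb1, Il12rb2, Il6ra, Il6st, Il10ra and Ifngr1 code for receptor chains through which T cells sense interleukins 18, 12, 6 and 10 and interferon gamma. They are 8 of the 19938 genes that the array table names, and they were taken by gene symbol, each with exactly 1 row in the table. RNA came from CD8+CD28low regulatory T cells of C57Bl/6 mice, a CD8 T cell population with little of the costimulatory receptor CD28 on its surface, and was read on 12 Affymetrix whole-transcript arrays. The 4 groups of 3 arrays each were activated KO, activated WT, native KO and native WT. KO stands for the genotype AIRE ko and WT for wild type, and Aire is a transcriptional regulator best known for the display of tissue antigens in the thymus. Native cells were used directly after isolation, and activated cells had spent 96 h in culture together with allogenic antigen-presenting cells (APC) and an antibody against CD3, the signalling part of the T cell receptor. Stimulating antibody and foreign APC were thus given to KO and WT activated cells alike, and every activated against native difference includes the time in culture. The titles call the arrays biological replicates, but age and sex of the mice, the number of mice behind an array and the deleted stretch of Aire are not stated in these labels, so the p-values below measure the spread between these arrays.

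Cytokine receptors of this kind work as pairs of unlike chains. IL-12 binds a receptor of Il12rb1 and Il12rb2, whose kinases Jak2 and Tyk2 activate the transcription factor Stat4 and, in T cells, favour interferon gamma production. IL-18 binds Il18r1, and Il18rap joins the complex to signal through Myd88. IL-6 binds Il6ra, which then engages Il6st, the gp130 chain that is shared by several other cytokines and that signals through Jak1 and Stat3. IL-10 is bound by Il10ra together with Il10rb, and interferon gamma by Ifngr1 together with Ifngr2.

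All values are log2 expression levels. A gene was taken as at background on an array where it did not exceed the 95th percentile of 1022 olfactory receptor genes, a family used in smell and not expected in T cells. Activated and native arrays parted along principal component 1 (68.2% of the variance). Component 2 (16.6%) separated activated KO array 3 from the rest, with a score of -63.79. That array also had the highest olfactory median (6.35) and the narrowest interquartile range (2.19) of the 12, so differences of the chains that it moves are also given below without it or without both arrays of its experiment. Aire itself had mean levels of 5.75 in activated KO, 5.63 in activated WT, 5.69 in native KO and 5.82 in native WT cells, all below the background level, and therefore gave no check of the genotype labels. Of 8 CD8 T cell markers 6 were measured and none was at background in any group, Cd8a and Cd8b1 among them. Cd28 had mean levels of 10.74 in activated KO, 10.97 in activated WT, 11.53 in native KO and 11.51 in native WT cells. In bulk RNA of this kind, fewer cells that carry a transcript and less of it per cell cannot be told apart.

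Activation was accompanied by large changes in the IL-12 and IL-6 receptor chains, and they went in opposite directions. In each genotype Il12rb2 and Il12rb1 rose and Il6ra and Il6st fell, while the 2 IL-18 receptor chains, Il10ra and Ifngr1 did not pass the test. In KO cells, 2 of 8 chains were thus called higher and 2 of 8 lower at an adjusted p under 0.05 (limma, Benjamini-Hochberg adjustment over all 19938 genes), where 8.72% of all genes were called higher and 11.4% lower. In WT cells the same 4 chains were called, 2 higher and 2 lower, where 9.72% of all genes were called higher and 10.9% lower. The median log2 difference over the 8 chains was 0.27 in KO and 0.29 in WT cells, beside 0.02 and -0.02 over all genes. The plot of levels by array shows the 8 chains side by side.

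**Figure D1:**
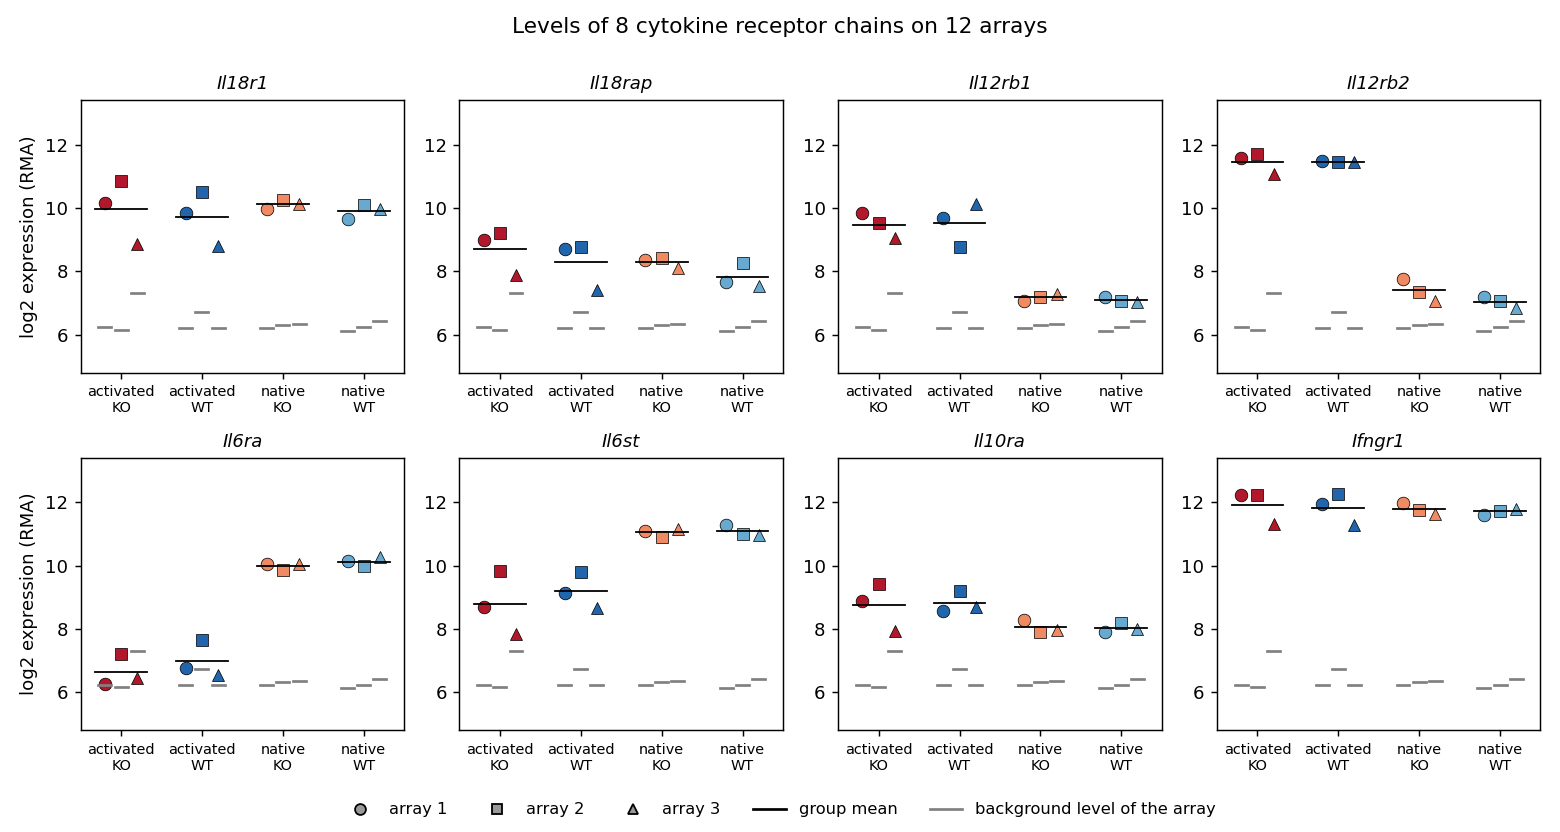
Log2 expression (vertical axis) of the 8 receptor chains on each of the 12 arrays, by group (horizontal axis). Points are arrays, black lines group means, and grey ticks the background level of each array. Il12rb1 and Il12rb2 lie higher and Il6ra and Il6st lower on every activated array than on any native array, and array 3 of both activated groups is low for Il18r1, Il18rap and Ifngr1.

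Il12rb2, the signalling chain of the IL-12 receptor that is characteristic of type 1 responses, lies on chromosome 6 at 67285986 to 67376293 (GRCm38.p6, the build of all positions given here). Its level on arrays 1, 2 and 3 was 11.59, 11.70 and 11.08 in activated KO cells, against 7.77, 7.35 and 7.07 in native KO cells. In activated WT cells it was 11.49, 11.46 and 11.44, against 7.19, 7.07 and 6.85 in native WT cells. All 6 activated arrays lay far above all 6 native arrays, and the activated WT arrays were nearly alike (SD 0.03). The log2 difference was 4.06 ± 0.19 (SE of the fit, n = 3 per group) in KO cells, a 16.7-fold rise (adjusted p = 2.09e-07), and 4.43 ± 0.19 in WT cells, a 21.5-fold rise (adjusted p = 9.04e-08). Among all genes that were higher in activated cells this rise ranked 17 by size in KO and 13 in WT cells.

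Il12rb1, the chain that IL-12 and IL-23 receptors share, lies on chromosome 8 at 70808360 to 70823542. It stood at 9.83, 9.51 and 9.05 on the activated KO arrays, against 7.07, 7.20 and 7.28 on the native KO arrays. The activated WT arrays had 9.67, 8.75 and 10.13, against 7.18, 7.07 and 7.03 on the native WT arrays. Activated and native arrays did not overlap, and the activated WT arrays were the most spread of the 4 groups (SD 0.70, against at most 0.39 in the others). The rise was 2.28 ± 0.29 on the log2 scale in KO cells (4.86-fold, adjusted p = 0.00019) and 2.43 ± 0.29 in WT cells (5.38-fold, adjusted p = 0.000111).

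Il6ra, the chain that binds IL-6, lies on chromosome 3 at 89869324 to 89913196 and showed the largest fall of the 8 chains. Its level was 6.25, 7.21 and 6.44 on the activated KO arrays, against 10.04, 9.86 and 10.05 on the native KO arrays. On the activated WT arrays it was 6.75, 7.64 and 6.54, against 10.14, 9.98 and 10.26 on the native WT arrays. The 6 native arrays lay close together and above every activated array, and activated KO array 3 was under its own background level. The log2 difference was -3.35 ± 0.28 in KO cells (10.2-fold lower, adjusted p = 8.01e-06) and -3.15 ± 0.28 in WT cells (8.87-fold lower, adjusted p = 1.19e-05). Among all genes that were lower in activated cells this fall ranked 22 by size in KO and 20 in WT cells.

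Il6st, which codes for gp130, lies on chromosome 13 at 112464070 to 112506860. The activated KO arrays had levels of 8.69, 9.82 and 7.83, against 11.09, 10.90 and 11.17 on the native KO arrays. The activated WT arrays had 9.13, 9.79 and 8.67, against 11.27, 11.00 and 10.97 on the native WT arrays. Every activated array lay below every native one, and array 3 was the lowest of its group in both genotypes. The fall was larger than the spread between arrays, at -2.28 ± 0.40 in KO cells (4.84-fold lower, adjusted p = 0.00198) and -1.89 ± 0.40 in WT cells (3.69-fold lower, adjusted p = 0.00591).

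The stretches before the start sites are shown for the called chains with an entry, Il12rb2, which rose, and Il6ra and Il6st, which fell. They are RefSeq's, in GRCm38.p6, and written 5′ to 3′ on the gene's strand. Except for Il12rb2 they end at the base before the start site. Of the 8 chains 6 have an entry, all but Il12rb1 and Il10ra. The stretches are chr6:67376294-67376438 (minus strand) for Il12rb2, without the 105 bases that lie inside the gene's annotated span, chr3:89913197-89913446 (minus strand) for Il6ra and chr13:112463820-112464069 (plus strand) for Il6st. Capitals mark a match to a motif searched.
Il12rb2: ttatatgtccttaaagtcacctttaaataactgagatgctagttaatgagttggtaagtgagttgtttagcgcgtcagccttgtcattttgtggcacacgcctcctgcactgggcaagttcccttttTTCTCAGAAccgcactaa
Il6ra: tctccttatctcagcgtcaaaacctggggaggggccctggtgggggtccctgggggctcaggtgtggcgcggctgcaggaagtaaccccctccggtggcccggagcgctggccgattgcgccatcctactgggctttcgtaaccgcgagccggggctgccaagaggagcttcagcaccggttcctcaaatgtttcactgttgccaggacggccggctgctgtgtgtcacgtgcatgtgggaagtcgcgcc
Il6st: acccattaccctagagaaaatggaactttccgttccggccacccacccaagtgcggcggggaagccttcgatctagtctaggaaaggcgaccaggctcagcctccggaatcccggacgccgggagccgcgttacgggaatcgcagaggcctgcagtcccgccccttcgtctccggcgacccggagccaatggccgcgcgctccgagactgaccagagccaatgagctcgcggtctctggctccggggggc

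Over the 250 bases before the start, 3 motifs were searched on both strands: TTCNNNGAA, the palindromic site of STAT factors, TGANTCA, the site of AP-1, and GGTGTGA, the core site of T-box factors. The only match in the 6 chains was a STAT site in Il12rb2, from position -123 to position -115 relative to the start. For this gene the 105 bases next to that start lie inside the annotated span and were searched but not printed. Of 27024 promoters of the same length, 7.14% hold the STAT site, 6.85% the AP-1 site and 3.31% the T-box site. A match of letters is a description of the sequence and shows no binding. The stretch of Il12rb2 has a GC content of 50.0% over its 250 bases, while those of Il6ra and Il6st have 65.2% and 66.0%, beside a median of 52.0% over all promoters.

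The IL-18 receptor genes are neighbours on chromosome 1. Il18r1, the chain that binds IL-18, lies at 40465552 to 40500854, and Il18rap, its signalling partner, begins 14508 bases further on and lies at 40515362 to 40551707. Their stretches before the start, chr1:40465302-40465551 and chr1:40515112-40515361 on the plus strand, are shown as the pair of neighbours that did not pass the test, and they held none of the 3 motifs. Their GC contents are 40.8% and 42.0%.
Il18r1: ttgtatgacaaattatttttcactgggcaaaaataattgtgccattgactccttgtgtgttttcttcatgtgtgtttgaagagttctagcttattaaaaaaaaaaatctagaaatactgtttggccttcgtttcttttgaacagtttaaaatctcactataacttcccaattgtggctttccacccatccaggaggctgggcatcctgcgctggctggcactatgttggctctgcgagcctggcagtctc
Il18rap: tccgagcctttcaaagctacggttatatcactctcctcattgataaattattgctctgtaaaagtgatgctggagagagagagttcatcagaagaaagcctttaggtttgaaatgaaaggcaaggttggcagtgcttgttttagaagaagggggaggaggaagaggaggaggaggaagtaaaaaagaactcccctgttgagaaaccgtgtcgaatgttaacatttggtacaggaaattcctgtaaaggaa

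Il18r1 stood at 10.17, 10.84 and 8.85 on the activated KO arrays, against 9.96, 10.25 and 10.13 on the native KO arrays. The activated WT arrays had 9.83, 10.51 and 8.81, against 9.65, 10.08 and 9.97 on the native WT arrays. In both genotypes activated array 2 was the highest and activated array 3 the lowest of the 6, so activated and native arrays overlapped. The log2 difference was -0.16 ± 0.47 in KO cells (adjusted p = 0.88, 95% interval -1.18 to 0.86) and -0.18 ± 0.47 in WT cells (adjusted p = 0.873, interval -1.20 to 0.84).

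Il18rap had levels of 8.99, 9.22 and 7.87 on the activated KO arrays, against 8.34, 8.41 and 8.11 on the native KO arrays. On the activated WT arrays it had 8.69, 8.75 and 7.40, against 7.66, 8.26 and 7.54 on the native WT arrays. Arrays 1 and 2 of each activated group lay above all native arrays of the same genotype and array 3 lay below them. The log2 difference was 0.41 ± 0.39 in KO cells (adjusted p = 0.578, 95% interval -0.44 to 1.27) and 0.46 ± 0.39 in WT cells (adjusted p = 0.522, interval -0.39 to 1.32).

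Il10ra, the chain that binds IL-10, lies on chromosome 9 at 45253837 to 45269149. It stood at 8.87, 9.43 and 7.92 on the activated KO arrays, against 8.29, 7.90 and 7.95 on the native KO arrays. The activated WT arrays had 8.56, 9.19 and 8.70, against 7.91, 8.17 and 8.01 on the native WT arrays. The WT groups did not overlap, and the KO groups overlapped through activated array 3. The log2 difference was 0.69 ± 0.30 in KO cells (adjusted p = 0.148, 95% interval 0.03 to 1.36) and 0.78 ± 0.30 in WT cells (adjusted p = 0.0972, interval 0.12 to 1.45), and neither passed the threshold. Without activated KO array 3 both passed, at 1.10 ± 0.21 in KO (adjusted p = 0.00254) and 0.78 ± 0.19 in WT cells (adjusted p = 0.00771), where that array enters only through the shared estimate of the spread. Without activated KO array 2 the difference was 0.35 ± 0.26 in KO cells (adjusted p = 0.401), while that in WT cells passed (adjusted p = 0.0332).

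Ifngr1, the chain that binds interferon gamma, lies on chromosome 10 at 19591949 to 19610229. Its levels were 12.22, 12.23 and 11.30 on the activated KO arrays, against 11.99, 11.76 and 11.62 on the native KO arrays. They were 11.94, 12.25 and 11.28 on the activated WT arrays, against 11.60, 11.73 and 11.80 on the native WT arrays. Activated arrays 1 and 2 lay above and array 3 below the native arrays of the same genotype. The log2 difference was 0.13 ± 0.27 in KO cells (adjusted p = 0.834, 95% interval -0.46 to 0.72) and 0.11 ± 0.27 in WT cells (adjusted p = 0.862, interval -0.48 to 0.70).

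**Figure D2:**
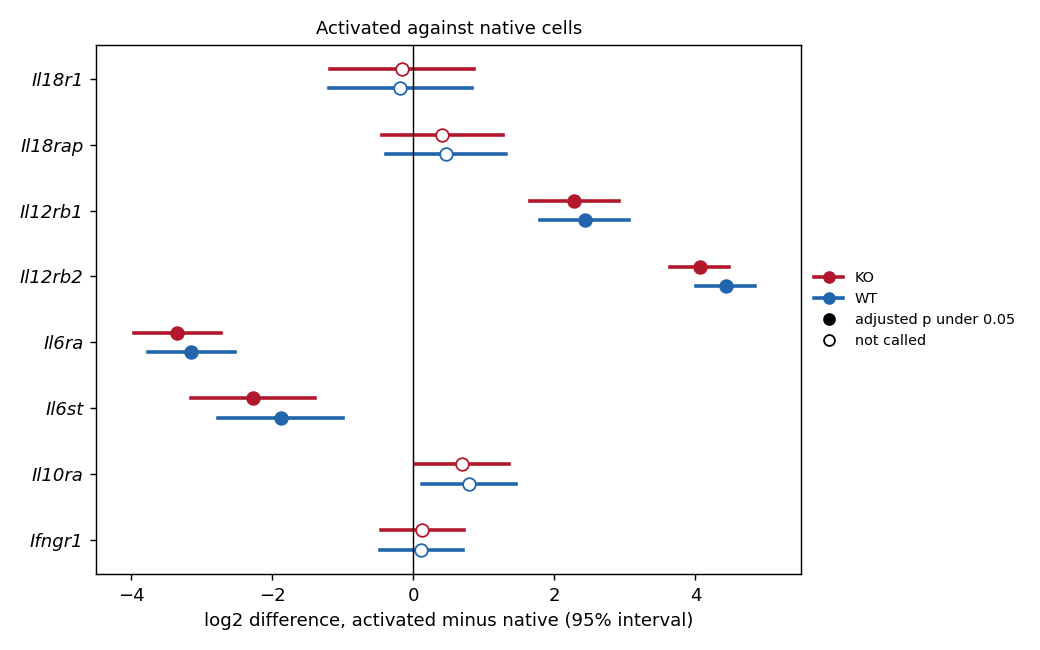
Log2 difference, activated minus native, of each receptor chain in KO (red) and WT (blue) cells (horizontal axis), with the 95% interval of the limma fit. Filled points passed an adjusted p of 0.05. Il12rb1 and Il12rb2 lie right of 0 and Il6ra and Il6st left of it in both genotypes, at differences from -3.35 to 4.43.

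The 2 activated arrays numbered 3 carry the same experiment number in the labels, 6, and each was the lowest of its group for Il18r1, Il18rap and Ifngr1. With both left out, an alternative chosen after the data had been seen, 7 of 8 chains were called in KO cells and 6 of 8 in WT cells, where 14.0% of all genes were called higher and 11.3% lower in KO and 11.2% higher and 14.1% lower in WT cells. Il18rap was then higher by 0.82 ± 0.19 in activated KO cells (adjusted p = 0.00883) and by 0.90 ± 0.19 in activated WT cells (adjusted p = 0.00528). Il10ra was higher by 1.10 ± 0.21 in KO (adjusted p = 0.00306) and by 0.84 ± 0.21 in WT cells (adjusted p = 0.0135). Ifngr1 was higher by 0.44 ± 0.13 in KO cells (adjusted p = 0.0352) and by 0.38 ± 0.13 in WT cells (adjusted p = 0.0598). Il18r1 turned to 0.39 ± 0.23 in KO (adjusted p = 0.28) and 0.27 ± 0.23 in WT cells (adjusted p = 0.482), still without a call. With activated KO array 3 alone left out, the KO differences had the same size and passed the test only for Il10ra among these 4, at an adjusted p of 0.12 for Il18rap, 0.529 for Il18r1 and 0.200 for Ifngr1. Leaving out other arrays moved Il18rap the other way, to 0.15 in KO cells without activated KO array 2 (adjusted p = 0.841). Over all single arrays left out, the difference of Il18rap ranged from 0.15 to 0.82 in KO and from 0.23 to 0.90 in WT cells, without a call in either. The 4 chains that were called with all arrays were also called without these 2.

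The markers of other cell types moved with activation as well. All 12 neutrophil markers were at background in activated KO and activated WT cells, while 2 of 12 were at background in native KO and 3 of 12 in native WT cells. Of 13 macrophage and dendritic cell markers measured, 11 were at background in activated KO, 12 in activated WT, 9 in native KO and 10 in native WT cells, with Cd68 the brightest in each group. Of 6 B cell markers measured, 4 were at background in activated KO, 4 in activated WT, 3 in native KO and 4 in native WT cells. Of 7 MHC class II genes measured, 3 were at background in activated KO, 3 in activated WT, 1 in native KO and 2 in native WT cells. Both erythroid markers measured were at background in the activated groups and above it in the native ones. Of 3 CD4 T cell markers, 2 were at background in each activated group and all 3 in each native group. The mean level of the 6 measured CD8 T cell markers was 11.69, 12.08 and 10.88 on the activated KO arrays, against 12.24, 12.05 and 12.19 on the native KO arrays. It was 11.84, 12.12 and 11.74 on the activated WT arrays, against 12.21, 12.06 and 12.16 on the native WT arrays. The part of these cells in the changes of the receptor chains was not tested.

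Genes around these receptors were followed in 6 lists of ligands, partner chains and signalling genes, with 69 of 79 genes measured. The shares over all genes, to be set beside the counts, were 8.72% called higher and 11.4% lower in KO cells. In WT cells they were 9.72% higher and 10.9% lower. Around IL-12, of 11 genes, 0 were called higher and 1 lower in KO cells and 1 higher and 2 lower in WT cells. Il27ra, the receptor chain of the related cytokine IL-27, fell by 1.59 ± 0.18 in KO cells (3.00-fold lower) and fell by 1.35 ± 0.18 in WT cells (2.55-fold lower). Jak2, the kinase bound to Il12rb2, fell by 0.71 ± 0.19 in WT cells. In KO cells its mean level was 9.5 in activated and 10.1 in native cells, without a call. Ebi3, a subunit of IL-27 and IL-35, rose in WT cells by at least 1.52 on the log2 scale, since all native arrays were at background. Stat4 and Tbx21, which act downstream of the IL-12 receptor, did not pass the test in either genotype. Stat4 had mean levels of 11.85 ± 0.58 in activated KO and 12.03 ± 0.07 in native KO cells, and of 11.93 ± 0.31 in activated WT and 11.93 ± 0.12 in native WT cells (SD, n = 3 each).

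Around IL-6, of 16 genes measured, 2 were called higher and 3 lower in KO cells and 1 higher and 3 lower in WT cells. Socs3, the inhibitor that binds gp130, had levels of 7.36, 7.85 and 6.46 on the activated KO arrays, against 9.02, 9.76 and 9.48 on the native KO arrays. It had 7.60, 7.35 and 7.47 on the activated WT arrays, against 8.92, 9.62 and 9.40 on the native WT arrays. Activated arrays lay below all native arrays in both genotypes, and Socs3 fell by 2.20 ± 0.31 in KO (4.59-fold, adjusted p = 0.000427) and fell by 1.84 ± 0.31 in WT cells (3.59-fold, adjusted p = 0.00132). Clcf1, a ligand that signals through gp130, fell by 1.53 ± 0.27 in KO and fell by 1.41 ± 0.27 in WT cells. Jak1, a kinase of gp130, fell by 0.79 ± 0.16 in KO cells and fell by 0.75 ± 0.16 in WT cells. Osm, a further gp130 cytokine, rose by 0.98 ± 0.30 in KO cells, a call kept in 14 of 23 alternatives, and by 1.26 ± 0.30 in WT cells, kept in 21 of 23. Lif, a related ligand, was called higher in KO cells, with native arrays at background and 1 of 3 activated KO arrays above it. The call was kept in 16 of 23 alternatives. Its activated KO mean lay 0.82 above the native background level, which is no lower bound, since activated arrays were at background too. In WT cells, without a call, 2 of 3 activated arrays were above background.

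Around interferon gamma, of 6 genes measured, 1 was called higher and 2 lower in each genotype. Ifngr2, the signalling partner of Ifngr1, had levels of 6.54, 7.48 and 6.38 on the activated KO arrays, against 10.19, 10.25 and 10.43 on the native KO arrays. It had 6.54, 7.38 and 5.87 on the activated WT arrays, against 10.44, 10.46 and 10.64 on the native WT arrays. The groups were far apart, with 2 of 3 activated arrays above background in each genotype. Ifngr2 fell by 3.49 ± 0.34 in KO cells (11.2-fold, adjusted p = 2.66e-05) and fell by 3.92 ± 0.34 in WT cells (15.1-fold, adjusted p = 9.77e-06), whereas its partner Ifngr1 had differences of 0.13 and 0.11. Irf1, a transcription factor induced by interferon gamma, fell by 1.88 ± 0.38 in KO and fell by 1.43 ± 0.38 in WT cells. Socs1, an inhibitor of interferon gamma signalling, rose by 0.59 ± 0.15 in KO and by 0.68 ± 0.15 in WT cells. Of 13 interferon gamma response genes measured, 0 were called in KO cells and 2 higher and 1 lower in WT cells. Psmb8 and Psmb9, subunits of the immunoproteasome, rose by 0.82 ± 0.17 and 0.81 ± 0.24 in WT cells. In KO cells, without a call, Psmb8 had mean levels of 9.80 in activated and 9.38 in native cells. Psmb9 had 10.07 in activated KO and 9.64 in native KO cells. Cd274, which codes for the inhibitory ligand PD-L1, fell by 0.60 ± 0.17 in WT cells and differed by -0.46 ± 0.17 in KO cells (adjusted p = 0.087).

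Around IL-18, of 13 genes measured, 1 was called higher and 3 lower in each genotype. Tollip and Traf6, signalling genes of this list, differed by -0.75 ± 0.19 and -0.69 ± 0.20 in KO cells and by -0.80 ± 0.19 and -0.73 ± 0.20 in WT cells, falls that passed the test in both. Il1rl2, a receptor chain of the IL-1 family, had levels of 6.55, 5.69 and 5.88 on the activated KO arrays, of which only array 1 was above background, against 6.99, 7.04 and 6.92 on the native KO arrays. It fell by 0.95 ± 0.25 in KO cells, a value that rests largely on levels at background, and Il18, the cytokine, was called higher there although it was at background in all 4 groups. Il18bp, a secreted antagonist of IL-18, fell by 0.53 ± 0.15 in WT cells, a call kept in 17 of 23 alternatives. In KO cells, without a call, its mean level was 7.36 in activated and 7.55 in native cells. Sigirr, an inhibitory receptor of the family, rose by 0.60 ± 0.19 in WT cells, a call kept in 7 of 23 alternatives. Around IL-10, of 10 genes measured, 1 was called higher in KO and 3 in WT cells and none lower. Il10rb, the partner of Il10ra, rose by 0.60 ± 0.17 in KO and by 0.69 ± 0.17 in WT cells. Il10 itself was called higher in WT cells, with native arrays at background, 2 of 3 activated WT arrays above it and the call kept in 11 of 23 alternatives. Its activated WT mean lay 1.05 above the native background level, no lower bound, since an activated array was at background too. In KO cells, without a call, the activated arrays had 7.52, 6.85 and 5.66, with 2 of 3 above background and native arrays at background. Il24, a cytokine of the IL-10 family, was called higher in WT cells, although its activated mean did not lie above the native background level. It kept the call in 10 of 22 alternatives. Without the arrays of experiment 6 the counts were 3 higher and 3 lower in KO and 1 higher and 3 lower in WT cells around IL-18, and 2 higher in KO and 1 higher in WT cells around IL-10. For the response genes they were 2 higher in KO and 4 higher and 1 lower in WT cells, and around IL-6 in WT cells 2 higher and 3 lower, and the other counts were as before.

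**Figure D3:**
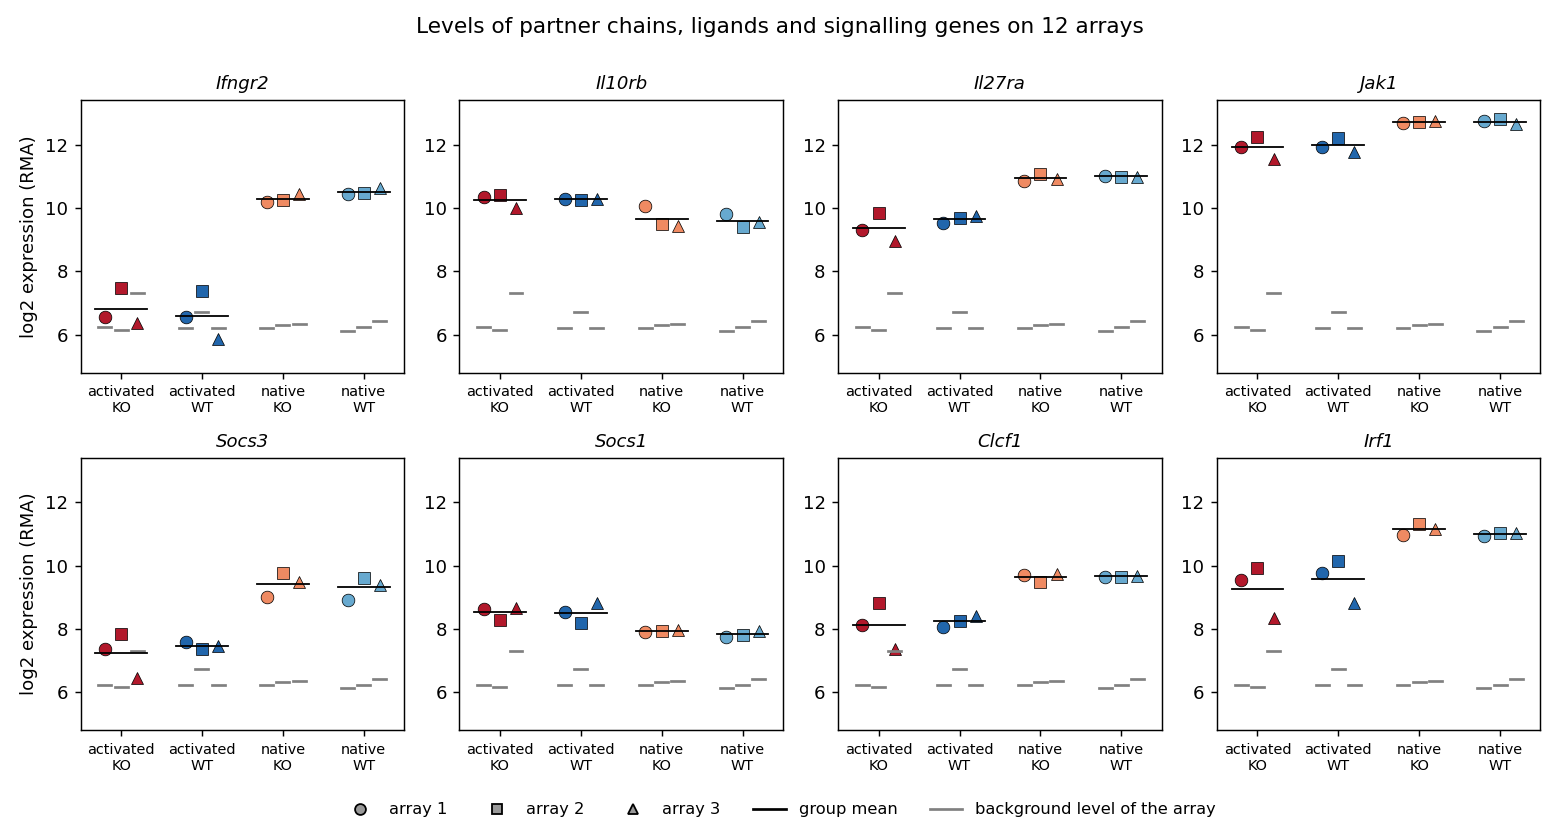
Log2 expression (vertical axis) of 8 partner chains, ligands and signalling genes on each of the 12 arrays, by group (horizontal axis), drawn as for the receptor chains. Ifngr2, Il27ra, Jak1, Socs3, Clcf1 and Irf1 lie lower on every activated array than on any native array, and Socs1 lies higher.

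Aire-deficient and wild-type cells were then compared within each state. None of the 8 chains passed the test in activated or in native cells, and no gene of the 19938 did. In activated cells, 0 of 8 chains were called, where 0% of all genes were called (limma), and 87 genes, none of them one of the 8 chains, had an unadjusted p under 0.05. Under the alternatives run, 0 to 25 genes were called, none of them a chain. The KO and WT arrays overlapped for all 8 chains, a description for which the share over all genes was not computed. Every adjusted p of a chain was 0.9999. The log2 difference, KO minus WT, was -0.42 ± 0.40 for Il6st (95% interval -1.30 to 0.47) and 0.41 ± 0.39 for Il18rap (interval -0.44 to 1.27). It was -0.35 ± 0.28 for Il6ra (interval -0.96 to 0.27) and 0.23 ± 0.47 for Il18r1 (interval -0.78 to 1.25). Il12rb2, at -0.01 ± 0.19 (interval -0.43 to 0.41), and Il12rb1, at -0.05 ± 0.29 (interval -0.68 to 0.58), lay closest to 0, with Il10ra at -0.07 ± 0.30 (interval -0.74 to 0.59) and Ifngr1 at 0.09 ± 0.27 (interval -0.50 to 0.68). Single arrays decided the size of these values and in part their sign. Without activated KO array 3, Il6st differed by 0.057, Il18rap by 0.82 and Il18r1 by 0.79. Without activated KO array 2, Il6st differed by -0.94, Il18rap by 0.15 and Il18r1 by -0.21, and none passed the test either way. With both arrays of experiment 6 left out, Il6st differed by -0.21, Il18rap by 0.38 and Il18r1 by 0.34, without a change of sign. Il12rb1, Il12rb2 and Il10ra then changed sign, to 0.46, 0.17 and 0.28, and no chain was called.

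In native cells, 0 of 8 chains were called, where 0% of all genes were called (limma), and 131 genes, again none of the 8 chains, had an unadjusted p under 0.05. The alternatives called 0 to 19 genes and none of the chains. KO and WT arrays overlapped for all 8 chains, again without a share over all genes beside it. The difference was 0.46 ± 0.39 for Il18rap (interval -0.39 to 1.32), 0.36 ± 0.19 for Il12rb2 (interval -0.06 to 0.78, unadjusted p = 0.0865) and 0.21 ± 0.47 for Il18r1 (interval -0.81 to 1.23). The other 5 chains lay between -0.14 ± 0.28 for Il6ra (interval -0.76 to 0.47) and 0.09 ± 0.29 for Il12rb1 (interval -0.54 to 0.72). Leaving out 1 array at a time gave 0.33 to 0.68 for Il18rap, 0.17 to 0.53 for Il12rb2, with the lowest value without native KO array 1, and 0.085 to 0.30 for Il18r1, with the lowest value without native WT array 1. Il6st differed by -0.03 ± 0.40 (interval -0.91 to 0.86), Il10ra by 0.02 ± 0.30 (interval -0.65 to 0.68) and Ifngr1 by 0.08 ± 0.27 (interval -0.51 to 0.67). All these errors and intervals use a spread shared over the 4 groups, activated arrays included. For Il18r1 the SD was 1.02 in activated KO and 0.85 in activated WT cells, against 0.14 in native KO and 0.23 in native WT cells. The wide intervals therefore do not show that a native difference is absent.

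**Figure D4:**
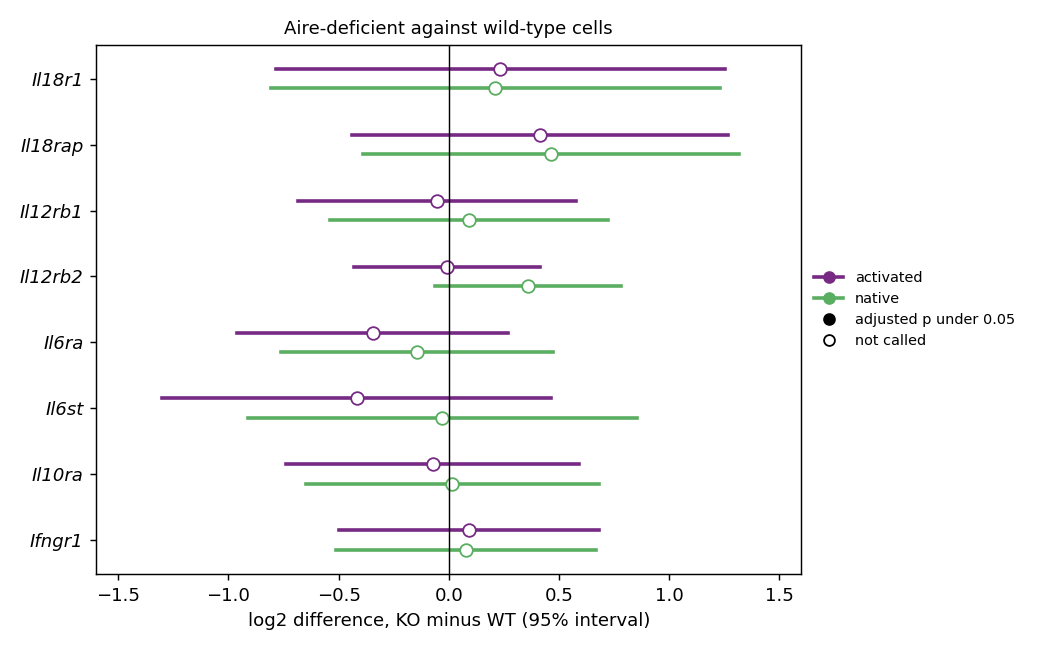
Log2 difference, KO minus WT, of each receptor chain in activated (purple) and native (green) cells (horizontal axis), with the 95% interval of the limma fit. All points are open, meaning that none passed an adjusted p of 0.05, and all intervals include 0.

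Deviations from group means of native KO and WT arrays with the same experiment number correlated at 0.58, 0.396 and 0.157. The last is near the 0.13 of native KO array 2 with native WT array 3, which share no number. Native arrays with the same number were compared within pairs. Il18rap was higher in the KO array of each pair, by 0.68, 0.15 and 0.57. Il12rb2 was higher by 0.59, 0.28 and 0.21, and Il18r1 by 0.32, 0.17 and 0.15. These 3 of 8 chains were higher in KO in all 3 pairs, where 8.95% of all genes were. Il6ra differed by -0.11, -0.12 and -0.21 and was the only one of the 8 that was lower in KO in all 3 pairs, where 17.2% of all genes were. With the pair as a block and all 12 arrays in the limma model, Il18rap differed by 0.46 ± 0.13 (unadjusted p = 0.00746, adjusted p = 0.9999). Il12rb2 differed by 0.36 ± 0.15 (unadjusted p = 0.0386, adjusted p = 0.9999), and no call changed. The same block was also run in limma after dropping every activated array, a choice made with the data seen. Il18rap then had 0.46 ± 0.11 (unadjusted p = 0.00176, adjusted p = 0.338) and Il12rb2 0.36 ± 0.09 (unadjusted p = 0.00359, adjusted p = 0.488). Il18r1 had 0.21 ± 0.08 (unadjusted p = 0.0248, adjusted p = 0.835), and again no chain was called.

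Markers of natural killer (NK) cells, which also carry IL-18 and IL-12 receptors, differed between the same native arrays. The mean level of the 6 NK markers was 8.71, 7.91 and 8.25 on the native KO arrays, against 8.03, 7.49 and 7.51 on the native WT arrays, and none was at background. In the activated groups it was 7.88, 7.40 and 8.28 on the KO arrays, against 7.67, 6.95 and 7.91 on the WT arrays, with 2 of 6 at background in each. The mean of the 12 neutrophil markers was 8.25, 6.02 and 7.73 on the native KO arrays, against 6.75, 5.88 and 5.44 on the native WT arrays. The part of these cells in the differences of Il18rap, Il12rb2 and Il18r1 was not tested.

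Over the mean of both states, 0 of 8 chains were called, where 0% of all genes were (limma), with 118 genes and none of the chains at an unadjusted p under 0.05, and 0 to 43 genes called by the alternatives. The differences, KO minus WT, ran from -0.24 ± 0.20 for Il6ra to 0.44 ± 0.28 for Il18rap. The interaction, the activation difference in KO minus that in WT, likewise gave 0 of 8 chains where 0% of all genes were called (limma), with 86 genes and none of the chains at an unadjusted p under 0.05, and 0 to 6 genes called by the alternatives. It ran from -0.39 ± 0.57 for Il6st to 0.02 ± 0.66 for Il18r1 and was -0.37 ± 0.27 for Il12rb2. Without activated KO array 3 it was 0.085 for Il6st, 0.58 for Il18r1 and -0.18 for Il12rb2. The larger rise of Il12rb2 in WT than in KO cells did not pass the test (limma, unadjusted p = 0.203). With 1 array left out at a time, its interaction ranged from -0.53 to -0.18. In all 6 lists of partner genes 0 genes were called in each of these 4 comparisons. Ifng, whose product Ifngr1 binds, had levels of 9.28, 6.86 and 11.16 on the activated KO arrays, against 9.26, 6.87 and 9.75 on the activated WT arrays. In both activated groups array 2 was the lowest and array 3 the highest. Its mean level was 9.96 ± 0.66 in native KO and 9.28 ± 0.49 in native WT cells (SD, n = 3 each), a difference of 0.68 ± 0.94 that did not pass the test.

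The genes whose levels followed each chain most closely were sought among 10544 genes above background on at least 3 arrays, by Pearson's r over the 12 arrays. These arrays fall into an activated and a native cluster, so the coefficients of chains that changed mainly restate that split and are given as a description. For Il12rb2 they were Foxm1, a cell cycle transcription factor (r = 0.998), Ncaph, a condensin subunit (0.997), and Scd2, a fatty acid desaturase (0.994). Il12rb1 was most like Tmem171, Tirap, an adaptor of Toll-like receptors, and Stard4 (each 0.996). Il6ra was most like Stx1a (0.998), Rnf144a (0.997) and Itgae, the integrin chain CD103 (0.994). Il6st was most like St3gal1, a sialyltransferase (0.996), Tdrp (0.996) and Pecam1 (0.994).

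The chains without a call had other company. Il18r1 was most like Abcb1a, a drug efflux pump (r = 0.935), Cxcr3, a chemokine receptor of type 1 effector cells (0.933), and St3gal6 (0.927). Ifngr1 was most like St3gal6 (0.933), Tmem243 (0.924) and Cxcr3 (0.910). Il18rap was most like Klra3, a Ly49 receptor of NK cells and of some CD8 T cells (0.911), Samd3 (0.908) and St3gal6 (0.879), so that St3gal6 was named for all 3 of these chains. Il10ra was most like Pygl, the liver form of glycogen phosphorylase (0.967), Zfp207 (0.966) and Dap (0.959). Among the chains themselves, Il18r1 and Il18rap correlated at 0.744 and Il18r1 and Ifngr1 at 0.855, and these arrays share the low activated array 3 of each genotype.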

How the data were processed

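The deposited table holds log2 expression values, 1 per transcript cluster and array, which the authors computed with RMA in Partek according to the submitters' processing notes, without versions or options. The usual RMA compresses differences near background. Per the labels' protocols, Trizol and RNeasy were used to extract RNA, and the labelled target was biotinylated sense DNA. Of 35556 rows, 21789 had 1 gene symbol, 1621 several and 12146 none, and 21698 of the first kind matched the RefSeq gene table. Genes with several rows (999 of 19938) kept the row with the highest mean over 12 arrays. Values were used as deposited, without a filter.

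Group means were fitted over all 12 arrays with limma 3.58.1 in R 4.3.3 (lmFit, eBayes), with the Benjamini-Hochberg adjustment over 19938 genes and a threshold of 0.05. Samples were grouped by title and genotype. Where 1 group was at background, the 95th percentile of olfactory receptor genes took its place, against the measured values of the other group. The result is a bound only where all arrays of the other group were above background. The number of arrays limits the precision. The program was tested on simulated data. Receptor chains and gene lists were chosen with earlier results of these data known. All 8 chains are named in every comparison. Of each list, up to 4 called genes with the largest difference are named, and for likeness the 3 genes with the highest r. Where a list had no call, the rule also took the gene with the smallest p, and of these only Cd274 in KO activation and Ifng are given. Jak1 in KO cells is given beside WT cells, where the rule named it. Stat4 and Tbx21, the Ifng levels in activated cells and Cd28 were chosen after their values were seen.

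The descriptions give an experiment number that KO and WT arrays share within a state. Deviations from group means correlated at 0.58, 0.396 and 0.157 within native pairs and at 0.694, -0.0166 and -0.013 within activated pairs, so only the native numbers were taken to pair arrays. Alternatives covered the normalization, filters, the rows tested, variance moderation, array weights, blocks and leaving out arrays.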

Additional observations from a re-analysis of the deposited data

How the results depend on the processing

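The 8 called differences of receptor chains kept their direction and call in all 184 alternatives run. They ranged from 3.89 to 4.30 in KO and from 4.34 to 4.50 in WT cells for Il12rb2, and from 2.10 to 2.49 and from 2.12 to 2.81 for Il12rb1. For Il6ra they ranged from -3.64 to -2.81 and from -3.48 to -2.93, and for Il6st from -2.80 to -1.38, the last with array weights, and from -2.18 to -1.62. Of the differences of chains without a call, 29 were followed through the alternatives. Over the mean of both states these covered only Il18rap and Il6ra, and in the interaction only Il18r1, Il12rb2 and Il6st. The 29 differences were called in 13 of 699 alternatives, 10 of them for Il10ra, and had the other sign in 51. Of 757 alternatives for 33 called values of list genes, 119 lost the call and none changed sign. Cd274 in KO cells was called in 2 of 23, without activated WT array 2 or 3. Genes called numbered 4002 in KO and 4107 in WT activation. All rows of the table, a larger table of tests, gave 7526 in KO and 7687 in WT, and array weights, whose estimation stopped before convergence, gave 7609 in WT. Without both arrays of experiment 6, 7 chains were called in KO cells, Il18r1 was 0.39 in KO and 0.27 in WT activation, and activated KO minus WT was 0.46 for Il12rb1, 0.17 for Il12rb2 and 0.28 for Il10ra, with or without the experiment number as a replicate block. That block without these arrays called 25 genes in activated and 19 in native cells, 43 over the mean and 6 in the interaction, none of them a chain. In native cells alone with the block, 14 genes were called, and 1 with the filter on dim genes, 2 with all rows, 1 with trend and robust moderation and 3 with array weights. With all arrays, the block, by experiment or by title number, changed no call of a chain. In activated cells, whose numbers were not taken as pairs, it gave Il18rap an unadjusted p of 0.0131, Il6ra of 0.0182 and Il6st of 0.0404 (limma, adjusted p = 0.9999). With array weights Il18r1 was 0.49 in KO and Ifngr1 -0.017 in WT activation. Activated KO minus WT was then 0.17 for Il12rb2, 0.38 for Il6ra, 0.63 for Il6st and 0.60 for Il10ra, Il10ra was -0.059 in native cells, Il6ra 0.11 over the mean and Il6st 0.70 in the interaction. Quantile normalization gave 0.047 for Il12rb2 and 0.034 for Il10ra in activated KO minus WT, and centring gave -0.013 for Il18r1 in the interaction. Leaving out 1 array at a time gave ranges with both signs. In activation these were -0.61 to 0.39 in KO and -0.58 to 0.27 in WT for Il18r1, and -0.029 to 0.44 and -0.10 to 0.38 for Ifngr1. In activated KO minus WT they were -0.22 to 0.79 for Il18r1, -0.026 to 0.82 for Il18rap, -0.44 to 0.25 for Il12rb1, -0.13 to 0.18 for Il12rb2, -0.94 to 0.057 for Il6st, -0.42 to 0.33 for Il10ra and -0.18 to 0.40 for Ifngr1. In native KO minus WT they were -0.087 to 0.066 for Il6st, -0.11 to 0.092 for Il10ra and -0.022 to 0.16 for Ifngr1. In the interaction they were -0.43 to 0.58 for Il18r1 and -0.91 to 0.085 for Il6st. Genes called then numbered 0 to 10 in native KO minus WT and 0 to 3 over the mean. The cause was not tested, and with 1 array left out its group rests on the other two. Signal near background limits Il6ra, Ifngr2 and Il1rl2 in activated cells.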
